A study of Mus musculus with 12 samples.

Results

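Bpifa1, Lcn2, Cyp2f2, Epcam and Dapl1 are 5 genes known mainly from secretory and lining epithelia, and they were described here across 4 pools of mouse hypothalamic RNA. They were chosen by their log2 signals in these same data, because treated pools differed from the control pool, so all of their differences are given as a description with no test. Each of the 5 genes was represented by 1 named probe set, all 5 passed the filter on low signal (at least 6 on at least 3 arrays), and they stood among 17186 genes tested. No array gave any of them a signal under 6.

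The samples were 12 Affymetrix Mouse Gene 1.0 ST arrays, 3 per pool, of hypothalamus from male C57Bl/6J mice aged 21 weeks. CON mice received neither agent. ASP mice were exposed to the sweetener aspartame at 46 mg/kg, starting in utero through the dam and lasting to the end of the study. CGP mice were exposed to CGP 39551, a drug that competes with glutamate at NMDA receptors, through the dam from conception until postnatal day 28. It was given in the drinking water of the dams, and its dose of 5 mg/kg was set by their body weight. ASP+CGP mice received both agents. RNA of the mice of each group had been pooled, as the methods describe. The 3 arrays of a group therefore repeated 1 pool, and every SD, SE and p below measures the spread between arrays and not between mice. The tissue was a rectangular block of the brain base with the optic chiasm and the mammillary bodies as its borders.

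Secretory epithelia of the airway and of glands release defence proteins into the fluid that covers them. Bpifa1 is a secreted protein of the upper airway that regulates the epithelial sodium channel and binds bacterial products, and Lcn2, a lipocalin, withholds iron from bacteria by binding their siderophores. Cyp2f2 is a cytochrome P450 abundant in club cells of the mouse airway, Epcam is an adhesion molecule of epithelial cells, endocrine epithelia such as the anterior pituitary included, and Dapl1 is a small protein related to the death-associated protein Dap and known from differentiating epithelia and the retinal pigment epithelium. None of these genes is a usual marker of hypothalamic neurons.

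The stretch of 120 bases before the annotated start of each gene is shown because 4 of the 5 genes had their ASP+CGP arrays below all others. For Bpifa1 the ASP+CGP arrays overlapped with those of ASP and of CGP. Any link between these bases and the signals in the pools was not tested. Sequences are from RefSeq, assembly GRCm38.p6, written 5′ to 3′ on the strand of the gene. They lie at chr2:154142760-154142879 (plus strand) for Bpifa1, chr2:32387740-32387859 (minus strand) for Lcn2, chr7:27119835-27119954 (plus strand) for Cyp2f2, chr17:87635859-87635978 (plus strand) for Epcam and chr2:59484533-59484652 (plus strand) for Dapl1. Capitals mark matches, on either strand, to the motifs listed after the sequences.
Bpifa1: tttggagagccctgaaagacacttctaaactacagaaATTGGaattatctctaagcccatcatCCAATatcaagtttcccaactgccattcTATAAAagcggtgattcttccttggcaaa
Lcn2: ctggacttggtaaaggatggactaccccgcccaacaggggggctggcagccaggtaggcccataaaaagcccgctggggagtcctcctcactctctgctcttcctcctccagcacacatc
Cyp2f2: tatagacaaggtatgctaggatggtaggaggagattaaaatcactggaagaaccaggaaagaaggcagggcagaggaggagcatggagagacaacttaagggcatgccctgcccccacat
Epcam: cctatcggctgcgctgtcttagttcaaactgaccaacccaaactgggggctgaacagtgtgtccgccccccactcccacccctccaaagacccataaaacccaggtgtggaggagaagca
Dapl1: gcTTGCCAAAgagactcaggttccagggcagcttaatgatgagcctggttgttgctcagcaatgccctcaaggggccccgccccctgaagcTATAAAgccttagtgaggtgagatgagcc

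The motifs searched on both strands of the 300 bases around each start (250 before and 50 after it) were the TATA box TATAAA, the CCAAT box CCAAT, the AP-1 motif TGANTCA, the forkhead motif TATTTAC and the C/EBP motif TTGCNNAA. Bpifa1 held a TATA box from -29 to -24 relative to the start, and Dapl1 held one at the same positions, from -29 to -24. TATAAA was present in 13.6% of 32817 promoters of the same length. Bpifa1 also held 2 CCAAT boxes, at -57 to -53 and, on the other strand, at -83 to -79, a motif found in 37.4% of promoters. Its AP-1 motif at -155 to -149 (in 7.81% of promoters) and its forkhead motif at -127 to -121 (in 3.04%) lay upstream of the printed stretch. Lcn2 held the C/EBP motif at -216 to -209, upstream of the printed stretch, and Dapl1 held it at -118 to -111, beside 10.8% of all promoters. No motif match overlapped another in these promoters. No exact match to these motifs was found in the windows of Cyp2f2 and Epcam, and variants of the motifs were not searched. The GC content of the windows was 42.3% for Bpifa1, 56.3% for Lcn2, 50.3% for Cyp2f2, 57.0% for Epcam and 51.0% for Dapl1, against a median of 52.7% over all promoters. Epcam had 11 CG dinucleotides in its window and Cyp2f2 had 0, against a median of 7.

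Of the secreted proteins, Bpifa1 was higher in CON than in any treated pool. The CON arrays read 7.84, 7.73 and 8.05 on the log2 scale, those of CGP 6.99, 7.06 and 6.92, those of ASP 6.91, 6.84 and 6.74, and those of ASP+CGP 6.82, 6.90 and 6.96. Each control array lay above each treated array, whereas the ASP+CGP arrays overlapped with those of CGP and of ASP. CON had a mean of 7.87 ± 0.16 (SD, n = 3 arrays), and the CGP, ASP and ASP+CGP pools had means of 6.99 ± 0.07, 6.83 ± 0.08 and 6.89 ± 0.07. Relative to CON, the signal was 2.06-fold lower in ASP, 1.84-fold lower in CGP and 1.97-fold lower in ASP+CGP, with log2 differences of -1.04, -0.88 and -0.98 and an SE of 0.07 each. ASP minus ASP+CGP was -0.06. In bulk RNA such as this, fewer cells of a type and less RNA per cell cannot be told apart, here or for the other genes.

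Lcn2 had a different profile, with ASP+CGP alone standing apart. Its signals were 8.11, 8.10 and 8.24 in the CON pool, 8.09, 8.05 and 8.15 in the CGP pool, 8.19, 8.36 and 8.16 in ASP and 7.34, 7.32 and 7.36 in ASP+CGP. The CON arrays overlapped with those of CGP and with those of ASP, the latter pools lay just apart from each other, and the highest ASP+CGP array lay 0.69 below the lowest array of the other pools. The means were 8.15 ± 0.08, 8.10 ± 0.05, 8.24 ± 0.11 and 7.34 ± 0.02 in CON, CGP, ASP and ASP+CGP (SD, n = 3). The signal in ASP+CGP was 1.75-fold lower than in CON and 1.86-fold lower than in ASP. The log2 differences of ASP and CGP from CON were 0.09 and -0.06, with an SE of 0.06.

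Cyp2f2, the P450 of club cells, separated all 4 pools. Its signals were 8.65, 8.72 and 8.67 in the CON pool, 9.01, 8.97 and 8.98 in the CGP pool, 9.30, 9.34 and 9.27 in ASP and 8.12, 7.95 and 7.89 in ASP+CGP. The order ASP, CGP, CON, ASP+CGP held with no overlap between neighbours, and the gaps between the nearest arrays were 0.26, 0.25 and 0.53. The means were 8.68 ± 0.04, 8.99 ± 0.02, 9.30 ± 0.03 and 7.99 ± 0.12 in CON, CGP, ASP and ASP+CGP (SD, n = 3). The signal was 1.54-fold higher than CON in ASP, 1.24-fold higher in CGP and 1.62-fold lower in ASP+CGP. The widest difference was between the pools that both received aspartame, as ASP lay 2.49-fold above ASP+CGP (log2 1.32, SE 0.05).

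Epcam, the epithelial adhesion molecule, followed the same order of pools as Cyp2f2. Its signals were 7.14, 6.89 and 7.13 in the CON pool, 7.75, 7.73 and 7.63 in the CGP pool, 8.15, 8.01 and 8.15 in ASP and 6.56, 6.75 and 6.76 in ASP+CGP. No pool overlapped another, with gaps of 0.26 between ASP and CGP, 0.49 between CGP and CON and 0.13 between CON and ASP+CGP. The means were 7.05 ± 0.14, 7.70 ± 0.06, 8.10 ± 0.08 and 6.69 ± 0.11 in CON, CGP, ASP and ASP+CGP (SD, n = 3). Epcam was 2.07-fold higher than CON in ASP and 1.57-fold higher in CGP, and its difference between ASP+CGP and CON was a log2 value of -0.37 (SE 0.07), or 1.29-fold. ASP exceeded ASP+CGP by 2.67-fold, the widest difference of the 5 genes in the 4 comparisons.

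Dapl1 resembled Lcn2. Its signals were 8.46, 8.59 and 8.77 in the CON pool, 8.42, 8.56 and 8.55 in the CGP pool, 8.71, 8.77 and 8.71 in ASP and 7.94, 7.94 and 8.09 in ASP+CGP. The CON arrays overlapped with those of CGP and of ASP, and the ASP+CGP arrays lay below all others, by a gap of 0.33. The means of 8.61 ± 0.16, 8.51 ± 0.08, 8.73 ± 0.04 and 7.99 ± 0.09 in CON, CGP, ASP and ASP+CGP (SD, n = 3) put ASP+CGP 1.53-fold below CON and 1.67-fold below ASP. The log2 differences of ASP and CGP from CON were 0.12 and -0.10, with an SE of 0.07.

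**Figure D1:**
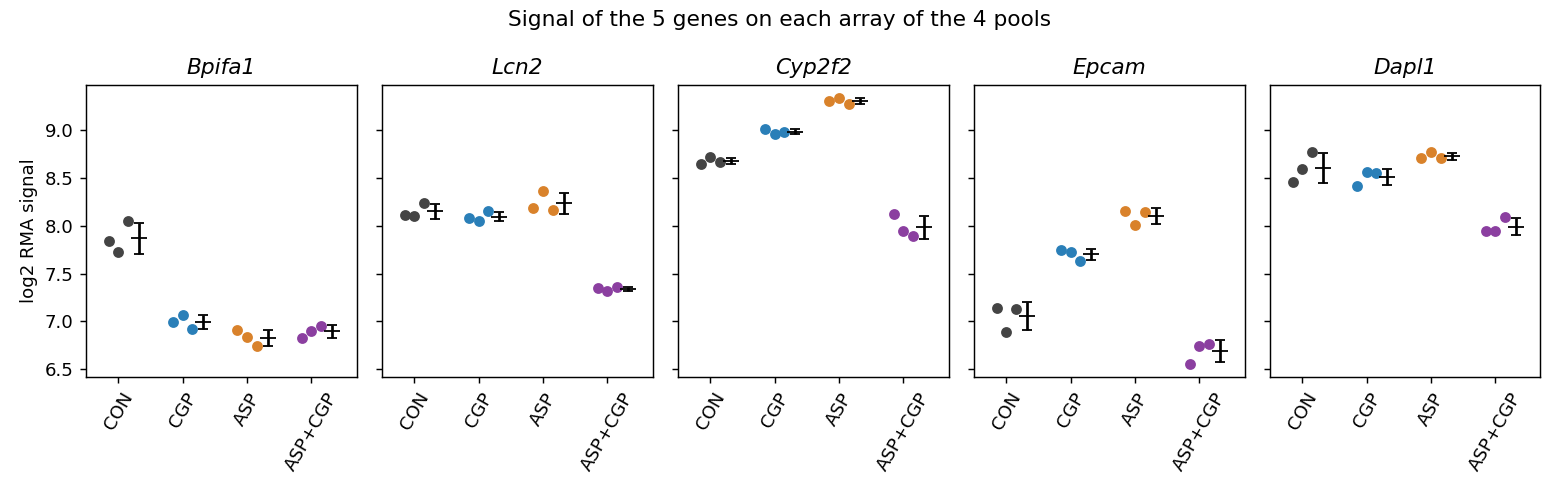
Log2 RMA signal (y axis) of each gene on the 3 arrays of each pool (x axis); coloured points are arrays, and black bars are the mean ± SD of the 3 arrays. Bpifa1 is high in CON only, Lcn2 and Dapl1 are low in ASP+CGP only, and Cyp2f2 and Epcam differ in all 4 pools with ASP at the top and ASP+CGP at the bottom.

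**Figure D2:**
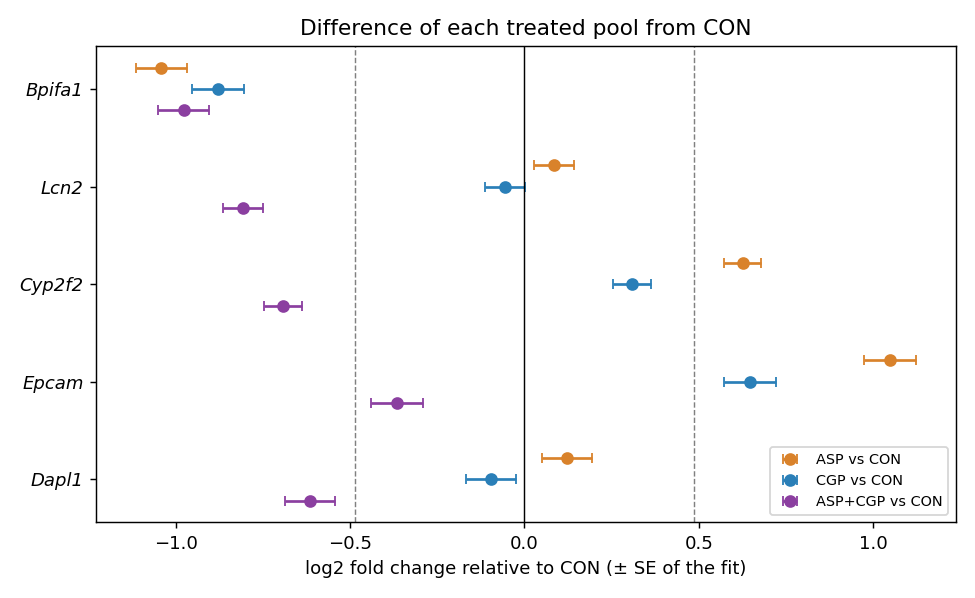
Log2 fold change of each treated pool relative to CON (x axis) for the 5 genes, with the SE of the limma fit as bars and dashed lines at a fold of 1.4 in either direction. Bpifa1 lies left of the lower line in all 3 comparisons, and the ASP+CGP points of Cyp2f2 and Epcam lie on the other side of 0 from their ASP and CGP points.

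Counted by the thresholds applied to all genes (limma, Benjamini-Hochberg adjusted p under 0.05 and a fold change over 1.4), Cyp2f2 and Epcam were higher and Bpifa1 was lower in ASP than in CON. Over all genes, 1.02% were called higher and 0.0291% lower in ASP. In CGP, Epcam was past the thresholds as higher and Bpifa1 as lower, beside 0.0931% and 0.0175% of all genes. In ASP+CGP, 4 of the 5 genes were past them as lower, Epcam being the exception, and 0 were higher, beside 0.14% of all genes lower and 0.0407% higher. Comparing ASP with ASP+CGP, which uses the same arrays, all but Bpifa1 were higher in ASP, beside 1.24% of all genes higher and 0.0349% lower. Since the genes were selected on these differences, nothing is read from the counts. The values nearest to the fold threshold were those of Dapl1 in ASP+CGP (-0.62) and Cyp2f2 in ASP (0.63) inside it, and Epcam in ASP+CGP (-0.37) and Cyp2f2 in CGP (0.31) outside it.

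Farthest from their pool means lay the third arrays of CON and of ASP+CGP, with an SD of the deviations over genes of 0.0903 and 0.0996, against 0.049 to 0.0701 for the other arrays. For Bpifa1, Lcn2 and Dapl1 the third CON array was also the highest of its pool. Without both arrays the differences from CON were -0.95 in ASP, -0.79 in CGP and -0.92 in ASP+CGP for Bpifa1. In ASP+CGP they were -0.77 for Lcn2, -0.65 for Cyp2f2, -0.58 for Dapl1 and -0.36 for Epcam. Each difference kept its sign and its side of the thresholds without these arrays. Of all genes, 11 were then higher in ASP+CGP than in CON, against 7 with every array. Without the second CON array 8 genes in place of 5 were lower in ASP, 5 in place of 3 were lower in CGP, and 3 in place of 7 were higher in ASP+CGP. Actb, a structural gene of all cells, differed from CON by 0.04 in ASP, 0.07 in CGP and -0.0046 in ASP+CGP on the log2 scale (SE 0.05).

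Over the 12 arrays, Lcn2 and Dapl1 correlated at r = 0.96, Cyp2f2 and Epcam at 0.93, Lcn2 and Cyp2f2 at 0.91 and Cyp2f2 and Dapl1 at 0.88. Epcam correlated at 0.75 with both Lcn2 and Dapl1. Bpifa1 stood outside this group, with r between -0.34 (Epcam) and 0.31 (Lcn2). These values describe 12 arrays that come from only 4 pools and were normalized together, and they carry no p.

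The genes whose signals most resembled those of the 5 were ranked by Pearson r over the same 12 arrays, among 280 genes whose pool means spanned at least a fold of 1.4. For Cyp2f2 they were Pomc (r = 0.98), the precursor of corticotropin and melanocortins, then Oacyl (0.97), prolactin Prl (0.97) and the gonadotropin subunits Lhb (0.96) and Cga (0.96). Epcam was most like Lhb (0.97), Ghrhr (0.97), the receptor for growth hormone releasing hormone, the claudin Cldn9 (0.96), the epithelial Rab protein Rab25 (0.95) and Txnip (0.94). Pomc, Prl, Lhb, Cga and Ghrhr are expressed in the anterior pituitary, and Pomc in hypothalamic neurons too. Prl, for one, had mean log2 signals of 10.83 for CON, 12.22 for CGP, 12.51 for ASP and 7.61 for ASP+CGP, the same order of pools as Cyp2f2 and Epcam.

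Lcn2 was most like Dapl1 (0.96), growth hormone Gh (0.96), Pomc (0.95), Prl (0.94) and Oacyl (0.93). Dapl1 was most like Lcn2 (0.96), the annexin Anxa2 (0.94), the complement inhibitor Serping1 (0.92), Pomc (0.91) and Gh (0.91). Serping1 had its lowest mean in ASP+CGP (8.79), as Prl did, but its CGP mean (9.15) lay below that of CON (9.32) with ASP highest (9.64), the order of means of Lcn2 and Dapl1. Bpifa1 was most like the vasopressin gene Avp (0.93), then Lamp5 (0.91), a lysosome-associated protein of neurons, the glycine transporter Slc6a5 (0.89), Mir376a (0.86) and the lubricating proteoglycan Prg4 (0.76). Slc6a5 had a mean of 9.44 in CON and of 7.41, 8.01 and 7.53 in CGP, ASP and ASP+CGP, and Avp had 11.26 in CON and 10.91, 10.76 and 10.71 in the others.

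Marker lists of tissues that adjoin the hypothalamus, or could be carried into the block, differed between the pools in several ways. Of the pituitary list 12 genes were measured, 7 of them called higher in ASP and 7 higher in CGP than in CON, 6 lower in ASP+CGP and 9 higher in ASP than in ASP+CGP. The shares of all genes for these calls were 1.02%, 0.0931%, 0.14% and 1.24%, and they are the background of the lists below too. The mean log2 signal of the list ranged over arrays from 8.98 to 9.10 for CON, 9.65 to 9.67 for CGP, 9.78 to 9.81 for ASP and 7.99 to 8.16 for ASP+CGP. The order of the pools, with no overlap, was that of Cyp2f2 and Epcam. The meninges list (17 genes) ranged from 8.45 to 8.53 in CON, 8.45 to 8.49 in CGP, 8.46 to 8.49 in ASP and 8.19 to 8.25 in ASP+CGP. Prg4 (-0.83), Fmod (-0.63) and Slc6a13 (-0.53) were called lower in ASP+CGP than in CON. Dcn (0.82) and Ogn (0.61) were called higher in ASP than in ASP+CGP. ASP+CGP also stood lowest for Lcn2, Dapl1, Cyp2f2 and Epcam, as it did for the pituitary and meninges lists. For the meninges list, Lcn2 and Dapl1, CON arrays overlapped with those of CGP and ASP, which was not so for the pituitary list. The adrenal cortex list (11 genes) ranged from 10.22 to 10.26 in ASP and from 6.79 to 6.87 over the arrays of the other pools (all 11 called higher in ASP than in CON), a profile that none of the 5 genes had. The ependyma and tanycyte list (9 genes) had its lowest mean in ASP (8.41) and its highest in ASP+CGP (8.52). Adrenal glands of the same mice were also taken in the study. The hypothalamus list (18 genes) ranged from 10.26 to 10.37 in CON, the pool with high Bpifa1, and from 10.10 to 10.18 in the treated pools. Its called genes went both ways. Avp was lower than CON in ASP (-0.50) and in ASP+CGP (-0.55). Npy was higher in ASP than in CON (0.54, limma adjusted p = 0.0015) and than in ASP+CGP (0.97). The part of these tissues in the differences of the 5 genes was not tested.

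**Figure D3:**
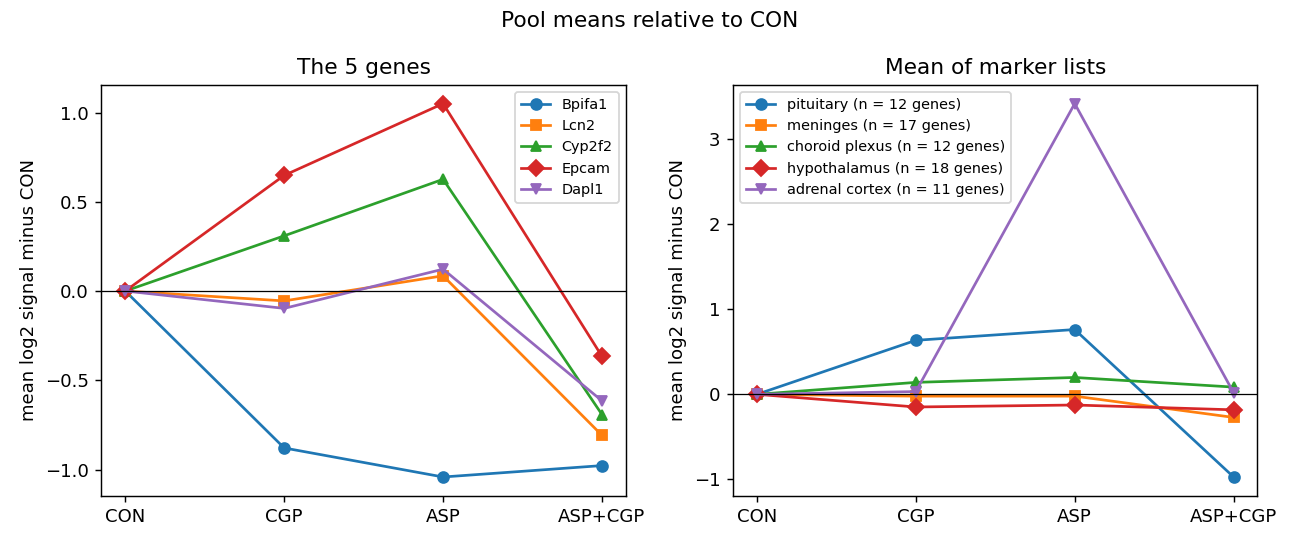
Mean log2 signal of each pool minus that of CON (y axis, different scales) for the 5 genes (left) and for the mean of 5 marker lists (right); lines join the pools for reading only. Cyp2f2 and Epcam go up in CGP and ASP and down in ASP+CGP as the pituitary list does (0.64, 0.76 and -0.97), while the adrenal cortex list is raised in ASP alone (3.42).

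Genes related to the 5 by family, function or site of expression were counted in 13 lists of 221 genes, of which 171 were measured. In ASP 4 of the 171 were higher than in CON and 0 were lower, beside 1.02% and 0.0291% of all genes. In CGP and in ASP+CGP, 0 passed the limma thresholds in either direction, and 0 did so without moderation of the spread. At an unadjusted p under 0.05 stood 41 of the 171 in ASP, 31 in CGP and 33 in ASP+CGP, beside 2907, 1997 and 2640 of the 17186 genes tested. ASP exceeded ASP+CGP in 8 of the 171, beside 1.24% of all genes. The 8 dropped to 5 without the third ASP array or with further quantile normalization, and to 4 over a fold of 1.5, since Rbp4, Gstm2, Ephx1 and Dap had folds of 1.407, 1.416, 1.406 and 1.402. The median log2 difference of the 171 from CON was 0.0141 in ASP, 0.0281 in CGP and 0.00 in ASP+CGP, against -0.013, 0.0147 and -0.0043 over all genes tested.

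The relatives of Bpifa1 were counted first, with the shares of all genes given above as their background. Among 13 measured genes of the BPI fold family, 0 were called by limma in ASP, CGP or ASP+CGP against CON, with 4, 2 and 3 at an unadjusted p under 0.05 and 0 without moderation. A count of 0 is near what the shares of all genes give for a list of this size. The list medians were -0.01, 0.06 and -0.02. The phospholipid transfer protein Pltp, the member with the highest mean signal, differed from CON by 0.00 in ASP (SE 0.05), 0.09 in CGP and -0.06 in ASP+CGP. Lbp, which carries lipopolysaccharide, differed by 0.14, 0.13 and -0.17. Of the 6 genes of the epithelial sodium channel and its control, 0 were called by limma in ASP, CGP or ASP+CGP, with 0, 1 and 2 at an unadjusted p under 0.05 and 0 without moderation. The genes next to Bpifa1 on chromosome 2 were Bpifb3, Bpifb4, Bpifa2, Bpifa5, Bpifb1 and Cdk5rap1. Over the 30 nearest tested neighbours of the 5 genes (3 on each side), 0 were called against CON by limma, with 8, 6 and 5 at an unadjusted p under 0.05 in ASP, CGP and ASP+CGP, and their log2 differences ran from -0.20 to 0.39, the highest being Cyp2b10 in ASP, a gene chosen after its value was seen.

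For Lcn2, calls among relatives fell in the lipocalin and the acute phase lists. In the lipocalin family (14 measured), 0 were called by limma in ASP, CGP or ASP+CGP against CON, with 4, 3 and 3 at an unadjusted p under 0.05 and 0 without moderation. Rbp4, the retinol carrier of plasma, was higher in ASP than in ASP+CGP (0.49 ± 0.06, limma adjusted p = 6.8e-05), a call lost over a fold of 1.5. Ptgds, the lipocalin that makes prostaglandin D in brain, differed from CON by -0.06 in ASP and -0.13 in ASP+CGP (SE 0.04). Iron handling (12 measured) and neutrophil genes (10 measured) had 0 calls by limma in any of the 4 comparisons and 0 without moderation. At an unadjusted p under 0.05 stood 1 to 5 genes per comparison for iron handling and 0 to 1 for neutrophils. Of 18 measured acute phase and defence genes, 2 were called higher in ASP than in CON and 0 lower, and the median of the list was 0.05. Hp, which binds free haemoglobin, rose by 0.96 ± 0.07 (limma adjusted p = 1e-06), and Lrg1 by 0.68 ± 0.07 (adjusted p = 2.4e-05). The protease inhibitor Serpina3n differed by -0.14 ± 0.04 and was not called. Neither Hp nor Lrg1 was called in CGP or ASP+CGP against CON. Alb, the albumin of liver, also rose in ASP, by 0.999 ± 0.09 (limma adjusted p = 4.2e-06). It was the only gene called in ASP against CON among 8 measured liver genes, whose median was 0.09. ASP was also the pool in which the adrenal cortex list was raised by 3.42. No list of fat cell genes was counted, and the study reported adiponectin and Fabp4 as raised in the hypothalamus of ASP mice. The part of adrenal, liver, fat or other tissue in the rises of Hp, Lrg1 and Alb was not tested. Lcn2 itself differed by 0.09 between ASP and CON.

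Among relatives of Cyp2f2, the largest difference was that of Cyp2e1, a P450 of ethanol oxidation that is abundant in liver. It rose by 3.79 ± 0.06 in ASP relative to CON (limma adjusted p = 1.9e-14), with mean signals of 6.07 for CON, 6.30 for CGP, 9.86 for ASP and 6.13 for ASP+CGP. It differed from CON by 0.24 in CGP and 0.06 in ASP+CGP (SE 0.06), and neither difference was called. Since its CON signal lay near 6, the level of the signal filter, a lower signal in ASP+CGP could hardly be seen. Like the genes of the adrenal cortex list, it was called higher than CON in ASP alone. The other 6 measured Cyp2 relatives were not called in any of the 4 comparisons. Of 15 measured genes of epoxide and quinone detoxification, the enzymes that clear reactive products of such P450s, Gstm2 (0.50 ± 0.08, adjusted p = 0.0016) and Ephx1 (0.49 ± 0.05, adjusted p = 4e-05) were higher in ASP than in ASP+CGP by limma, and both calls were lost over a fold of 1.5.

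Calls among relatives of Epcam and Dapl1 fell on single genes of their lists. Rab25, a vesicle protein of epithelial cells, rose in ASP by 0.53 ± 0.07 (limma adjusted p = 0.00041), a call lost over a fold of 1.5, and exceeded ASP+CGP by 0.69 ± 0.07 (adjusted p = 2.3e-05). It was the only gene called in the 4 comparisons among 27 measured genes of epithelial junctions and keratins. Of the 27, 7 in ASP, 11 in CGP and 5 in ASP+CGP had an unadjusted limma p under 0.05 against CON. For CGP this stood beside 1997 of the 17186 genes tested, and the list median was 0.10. The mean signal of this list ranged from 7.44 to 7.47 over the CGP arrays and from 7.33 to 7.35 over the CON arrays. The keratin Krt8 differed from CON by 0.28 in ASP, 0.29 in CGP and 0.18 in ASP+CGP (SE 0.10) and was not called. EpCAM partners and processing genes (13 measured) had 0 calls by limma in the 4 comparisons and 0 without moderation. At an unadjusted limma p under 0.05 stood 5 in ASP, 4 in CGP and 5 in ASP+CGP against CON, and 8 for ASP vs ASP+CGP. Over the 17186 genes tested these numbers were 2907, 1997, 2640 and 3624, a smaller share each time. Spint2, a protease inhibitor of epithelia, differed by -0.30 ± 0.05 between ASP+CGP and CON, short of the fold threshold. Dap, the namesake relative of Dapl1, was higher in ASP than in ASP+CGP by 0.49 ± 0.05 (limma adjusted p = 4.8e-05), alone among 10 measured genes of its list, and this call too was lost over a fold of 1.5.

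Other markers of the epithelia for which the 5 genes are best known were counted in the airway and gland lists. Among 18 measured markers of secretory and ciliated airway epithelium, 0 were called by limma in the 4 comparisons and 0 without moderation, with 0 to 5 at an unadjusted p under 0.05 and medians against CON of -0.02, 0.05 and 0.02 in ASP, CGP and ASP+CGP. The mean signal of that list ranged from 7.08 to 7.24 in CON and from 7.13 to 7.21 over the treated pools. Salivary and nasal gland markers (8 measured) likewise had 0 calls by limma and 0 without moderation, with 0 to 1 at an unadjusted p under 0.05. With so few genes, counts of 0 are near the share called over all genes. The description of the 5 genes as secretory epithelial rests on what they are known for in other organs.

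**Figure D4:**
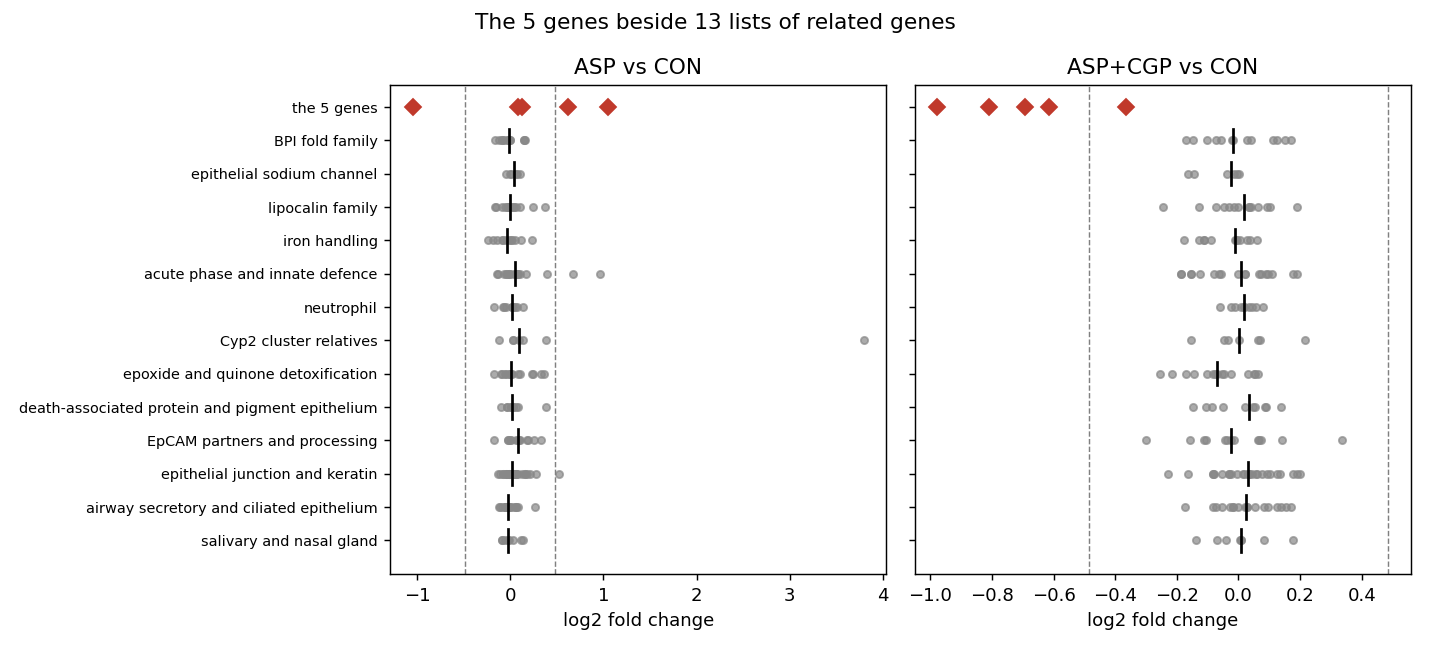
Log2 fold change (x axis, different scales) of the 5 genes (red diamonds) and of every measured gene of 13 related lists (grey points, median as a black bar) in ASP (left) and ASP+CGP (right) against CON, with dashed lines at a fold of 1.4. In ASP the related genes outside the lines are Cyp2e1, Hp, Lrg1 and Rab25, and in ASP+CGP there are none, while 4 of the 5 genes lie below the lower line.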

How the data were processed

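The authors deposited log2 signals, 1 per probe set and array, made in Partek by RMA (background correction, quantile normalization over arrays and median polish). RMA removes shifts common to most genes and compresses changes of dim genes. The genome build behind the array annotation is not given in the sources used here. Groups were taken from the sample labels. Of 29149 probe sets, 19019 carried 1 gene symbol in the platform annotation, 1197 several and 8933 none. RefSeq identifiers of GRCm38.p6 matched 18947 of them. A single-symbol probe set was kept if 3 or more arrays read 6 or higher (18810 probe sets), and the one with the highest mean represented a gene (17186 genes). Median signals of the arrays were 8.28 to 8.34. The number of arrays limits the precision.

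The package limma 3.58.1, run under R 4.3.3 (8 residual and 5.43 prior degrees of freedom) was fitted to all 12 arrays with 1 mean per pool. Calls needed a Benjamini-Hochberg adjusted p under 0.05 over all genes and a fold over 1.4. Data were simulated once for ASP vs CON with 17186 genes, 50 of them at each fold change. The fit called 94% of those changed 1.5-fold and 100% of those changed 2-fold, beside 2 false calls. The simulated noise was independent between arrays and had the spread of each gene between arrays of a pool. It held no spread between mice and no deviations shared between arrays, so these figures do not cover either. The members and lists were chosen with earlier results of these data known. Named genes were the 5 members, for each the 5 genes of highest r, up to 4 called genes per list and comparison, the 2 brightest genes of each related list, and Actb. Lists of choroid plexus (Ttr and Aqp1 higher in ASP, Ttr also in ASP+CGP), ependyma (0 called by limma or without moderation, 2 to 5 at an unadjusted p under 0.05), liver (Alb higher in ASP) and blood were counted beside those described.

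Deviations of CON and ASP+CGP arrays with the same replicate number correlated across genes at 0.17, 0.26 and 0.54 (replicates 1, 2 and 3), so these pools were also fitted with the replicate number as a block. Over all pools, 6 of 18 such pairs exceeded 0.1. The labels do not say what the number marks. Alternatives were other signal filters, probe set rules, normalizations, tests, fold thresholds, a replicate block and leaving out each array. The fit that left out the third array of CON and of ASP+CGP and the block over these pools alone were chosen after seeing the data. Promoter motifs were searched with Python 3.11.15.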

Additional observations from a re-analysis of the deposited data

Results flagged for a closer look

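For Cyp2f2 and Epcam, the pools with aspartame differed from their counterparts without it in opposite directions, depending on whether CGP 39551 was present. Cyp2f2 differed by 0.63 on the log2 scale between ASP and CON and by -1.001 between ASP+CGP and CGP, a difference of differences of -1.63. For Epcam the values were 1.05 and -1.01, a difference of differences of -2.06. Every array moved in the stated direction in both genes. The difference was not tested, since both genes were selected on these signals.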

How the results depend on the processing

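The 20 differences of the 5 genes kept their direction under each alternative run for them, 25 for ASP+CGP vs CON and 24 for the other comparisons. They kept their side of the thresholds too, except that without a fold threshold Cyp2f2 in CGP (0.31) and Epcam in ASP+CGP (-0.37) were called. With the replicate block, no difference of the 5 genes changed its call. Blocking CON and ASP+CGP alone gave 7 genes higher and 26 lower in ASP+CGP (7 and 24 without it), with Bpifa1 at -0.98 and Lcn2 at -0.81.

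Counts over all genes depended on the fold threshold. Without it they were 502 higher and 200 lower in ASP, 84 and 24 in CGP, 142 and 158 in ASP+CGP, and 730 and 459 for ASP vs ASP+CGP. In the related lists they were then 18 higher and 2 lower in ASP, 2 higher in CGP, 1 higher and 6 lower in ASP+CGP, and 23 and 3 for ASP vs ASP+CGP. Over a fold of 1.5, 2 genes were lower in ASP, 2 were higher in ASP+CGP, and 4 of the related lists were higher in ASP than in ASP+CGP. Further quantile normalization gave 5 of the last. With the third array of CON and of ASP+CGP left out, 11 genes were higher in ASP+CGP.

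Leaving out each array in turn gave 5 to 8 genes lower in ASP and 3 to 5 lower in CGP, both highest without the second CON array, and 3 to 9 higher in ASP+CGP, lowest without it. Related genes higher in ASP than in ASP+CGP numbered 5 to 8, lowest without the third ASP array. The cause of these shifts was not tested. Pools of mice without separate animals leave the spread between mice unmeasured.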
